A study of Mus musculus with 10 samples.

Results

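The nuclear-encoded genes of respiratory complexes II to V were followed in mouse embryonic tissue with and without fibulin-1. They were chosen by name: every gene on the array whose symbol begins with Uqcr, Cox4 to Cox8 or Atp5, together with Sdha, Sdhb, Sdhc, Sdhd, Cyc1 and Cycs. This gave 47 genes of the 12393 with a single symbol, with 4 in complex II, 10 in complex III with cytochrome c, 16 in complex IV and 17 in complex V. Each gene was read on its brightest probe set, the one with the highest mean over all 10 Affymetrix arrays. The tissue was hindbrain with pharyngeal arches 1 to 4 of E10.5 embryos, dissected from 5 wildtype embryos and from 5 embryos homozygous for a gene trap in Fbln1 (Fbln1-null). Heterozygous carriers of the trap were mated to obtain them, and each embryo was genotyped on its yolk sac. The trap is present in every cell of the null embryos, and the tissue is a mixture of neural, mesenchymal, epithelial and blood cells. In such a mixture, fewer cells of a type and less RNA per cell cannot be told apart. The labels do not name litters, so p-values measure the spread between these embryos.

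Complexes II to V lie in the inner mitochondrial membrane and carry out most of oxidative phosphorylation. Complex II, succinate dehydrogenase, oxidises succinate to fumarate in the citric acid cycle and passes the electrons to ubiquinone; all of its subunits are nuclear-encoded. Complex III hands electrons to cytochrome c, complex IV passes them to oxygen, and both pump protons, while complex V, the ATP synthase, uses the proton gradient to make ATP. Complexes III to V also contain subunits encoded in mitochondrial DNA. The transcription factors NRF1, GABP (an ETS factor also called NRF2) and YY1 are known to act at promoters of many nuclear respiratory genes.

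Promoter sequence is shown for the complex II genes, since 3 of these 4 genes had the lower means of the comparison that follows. The stretches come from RefSeq (GRCm38.p6), run 5′ to 3′ on the gene's own strand, end at the base before the annotated start and stop where a neighbouring gene begins. Capitals mark matches to motifs searched on both strands. The Sdha stretch (chr13:74350241-74350316, minus strand) fills the 76 bases between Sdha and the divergent gene Ccdc127, and its capitals are a pair of matches to the NRF1 core. The Sdhd stretch (chr9:50603850-50603900, minus strand) fills the 51 bases between Sdhd and the divergent gene Timm8b, and its capitals are an ETS core. The Sdhb stretch (chr4:140961151-140961270, plus strand) holds no match. Sdhc is named only.
Sdha: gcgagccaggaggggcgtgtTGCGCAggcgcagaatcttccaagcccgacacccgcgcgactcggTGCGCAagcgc
Sdhd: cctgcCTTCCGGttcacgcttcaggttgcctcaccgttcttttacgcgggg
Sdhb: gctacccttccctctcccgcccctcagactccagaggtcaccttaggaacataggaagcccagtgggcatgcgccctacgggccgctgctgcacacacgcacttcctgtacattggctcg
In the full RefSeq windows of 300 bases around the start, 35 of the 47 genes had an entry. The NRF1 core TGCGCA, which reads the same on both strands, was in the window of 8 of these 35 genes (22.9%), against 8.79% of all 27025 genes with a window. The ETS core CCGGAAG was in 13 (37.1%), against 9.93%, and the YY1 core ATGGCGG in 2, Atp5b and Atp5j (5.71%, against 4.69%). No motif contains another. Besides Sdha and Sdhd, the windows with an NRF1 core belonged to Uqcrc1, Cox5b, Cox6a1, Atp5g2, Atp5l and Atp5pb. The window of Sdhb held an ETS core outside the printed stretch. A match describes letters in the sequence and is not a measured binding site. The median log2 difference between genotypes was -0.05 over the 8 genes with an NRF1 core and -0.02 over the 24 tested genes whose window had none.

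The targeted gene matched the labels. Fbln1 log2 signal was 3.83 to 5.11 in wildtype and 2.52 to 2.85 in null tissue, a difference of -1.88 (SE 0.22, two-sided exact permutation p = 0.00794). Wildtype replicate 4 stood apart as the 1 array with high Xist (log2 9.68) and low Y-linked Eif2s3y (2.70), the pattern of a female embryo. All other arrays, the 5 null ones among them, had the male pattern, with Xist at 3.36 or lower and Eif2s3y at 8.96 or higher. Leaving out wildtype replicate 4 changed the sign of 5 of the 41 respiratory genes tested, and 25 then had lower and 16 higher means. Of all genes, 56.9% had lower means with every array kept. Sign changes were not particular to that array: without null replicate 4, Atp5j, Cox4i1, Cox6a1 and Cox6b1 went from higher to lower means. The part of sex in the results was not tested. Wildtype replicates 1 and 2 were the most similar pair of arrays (correlation 0.991 over the probe sets tested, next highest pair 0.986). The array held 16 hindbrain and arch marker genes, of which 6 lay under the filter used for testing. The 10 over it included Twist1, Prrx1, Dlx2 and Hoxa3. The mean log2 signal over all 16 markers was 4.95 to 5.38 in wildtype and 4.95 to 5.23 in null tissue. Of the 10, 6 had lower and 4 higher means in null tissue. Their log2 differences ran from -0.52 to 0.51, with a median of -0.02. The lowest was that of Pax6, a transcription factor of neural progenitors (SE 0.15, limma adjusted p = 0.222), with 4 null arrays below the wildtype range. The part of Pax6-expressing cells in the results for the respiratory genes was not tested. The difference in signal between the 3' and 5' actin control probe sets, which widens as RNA is degraded or incompletely copied, had means of 2.26 and 2.48 in wildtype and null tissue (exact permutation p = 0.143).

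Most respiratory genes had nearly the same signal in both genotypes. Of the 47 genes, 41 exceeded a log2 signal of 4 on at least 5 arrays and were tested among 9801 probe sets with limma. None passed a Benjamini-Hochberg adjusted p of 0.05, against 2 of all 5910 genes tested (0.0338%), and the smallest adjusted p was 0.116, for Sdha. At an unadjusted limma p of 0.05, 4 of the 41 had lower signal in null tissue (9.76%, against 8.98% of all genes): Sdha, Sdhc, Sdhd and Atp5a1. In the other direction stood 1, Uqcrc2 (2.44%, against 3.84%). These shares lie near the background, so the counts are not a result about the 41 genes as a whole. Their median log2 difference, null minus wildtype, was 0.0001, against -0.04 for all genes, with 20 lower and 21 higher means, and 26 of the 41 differed by less than 0.2. None of the 41 had all null arrays above all wildtype arrays, against 0.846% of all genes. With quantile normalization between arrays the members split into 3 lower and 1 higher at that p, and the background was 6.63% lower and 5.73% higher.

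**Figure D1:**
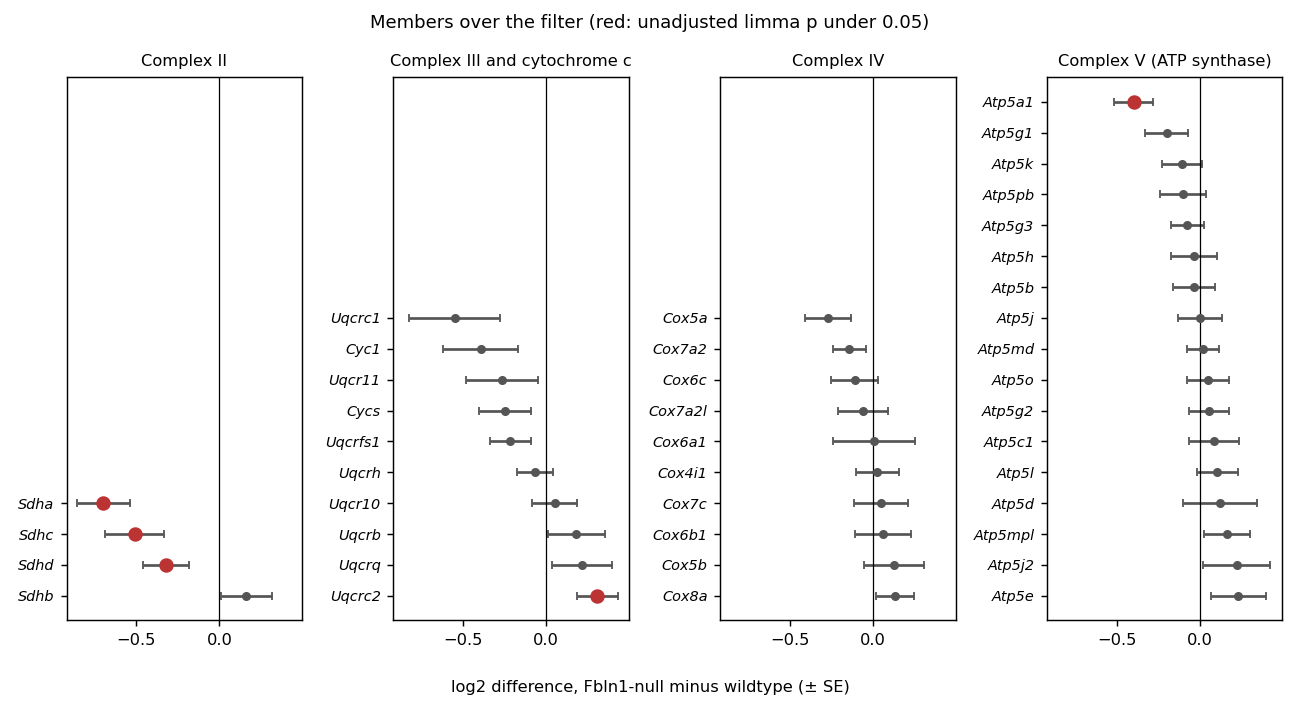
Log2 difference between Fbln1-null and wildtype tissue (horizontal axis, null minus wildtype, with the limma standard error as bars) for the 41 genes over the filter, by complex; red points have an unadjusted limma p under 0.05. Sdha, Sdhc and Sdhd lie furthest to the left in complex II, from -0.70 to -0.32, while most genes of complexes IV and V lie near 0.

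In complex II, 3 of the 4 subunits had lower means in null tissue at an unadjusted p of 0.05, against 8.98% of all genes, and none passed the adjusted threshold. Sdha, the flavoprotein subunit that holds the succinate site, had log2 signals of 9.47, 9.24, 9.05, 9.13 and 9.07 on wildtype replicates 1 to 5 and 8.78, 8.67, 7.99, 8.49 and 8.53 on null replicates 3, 4, 5, 7 and 8. All 5 null arrays lay below the lowest wildtype array, as for 2.03% of all genes, and null replicate 5 was the lowest. The means were 9.19 ± 0.17 (SD, n = 5) and 8.49 ± 0.31 (SD, n = 5), a log2 difference of -0.70 (SE 0.16), or 1.62-fold lower (limma adjusted p = 0.116). This probe set is of the _s_at type, which can match related transcripts or pseudogenes. On the other Sdha probe set, which is not of that type, the groups overlapped.

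Sdhc, a membrane anchor that helps bind ubiquinone and haem, read 7.30, 7.33, 7.12, 7.54 and 7.49 in wildtype and 7.19, 6.85, 7.09, 6.21 and 6.86 in null tissue. Null replicate 3 overlapped the wildtype range and null replicate 7 was the lowest array. Its log2 difference was -0.51 (SE 0.18, limma adjusted p = 0.298), and -0.35 without null replicate 7. Sdhd, the other membrane anchor, read 7.50, 7.71, 7.53, 7.66 and 7.19 in wildtype and 6.93, 7.39, 7.07, 7.22 and 7.36 in null tissue. Wildtype replicate 5 fell among the null arrays. The log2 difference was -0.32 (SE 0.14, limma adjusted p = 0.369), and lay between -0.41 and -0.26 with 1 array left out. The unadjusted p exceeded 0.05 without null replicate 3, 5 or 7 and without wildtype replicate 1, 2, 3 or 4, and also with quantile normalization.

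Sdhb, the iron-sulphur subunit that links Sdha to the anchors, did not share this direction. It read 7.86, 7.90, 8.06, 7.58 and 8.40 in wildtype and 7.98, 8.03, 8.28, 8.33 and 8.00 in null tissue. The groups overlapped fully, with a log2 difference of 0.16 (SE 0.16, limma adjusted p = 0.721). Leaving out wildtype replicate 4 gave 0.07, and leaving out wildtype replicate 5 gave 0.27. Whether Sdhb differed from the other subunits in its response was not tested.

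**Figure D2:**
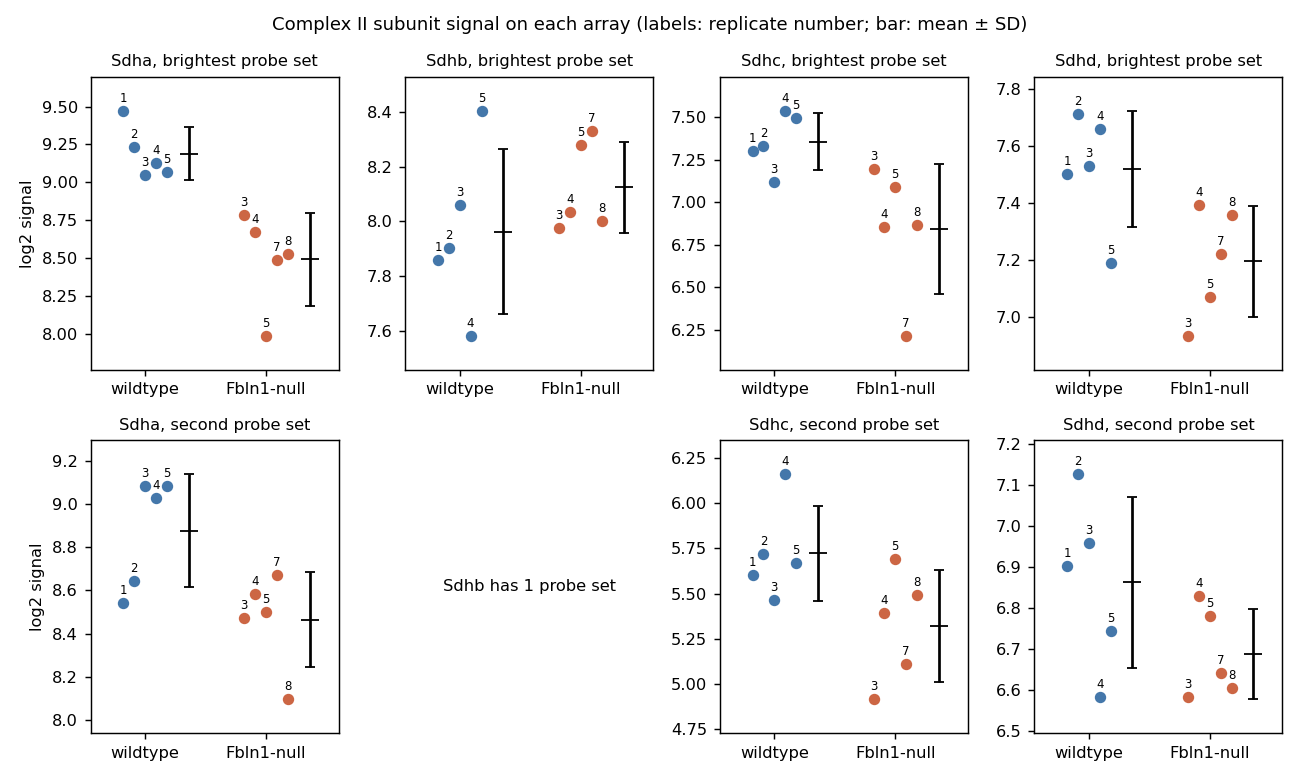
Log2 signal (vertical axis, scaled separately in each panel) of the complex II genes on every array, for the brightest probe set (top) and the second probe set (bottom); points carry the replicate number and black bars give the mean ± SD of 5 arrays. Null arrays lie below all wildtype arrays on the brightest Sdha probe set, and the groups overlap in the other panels.

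The second probe sets of Sdha, Sdhc and Sdhd had the same direction. They are a second reading of the same RNA, not a further replicate. The second Sdha probe set had a log2 difference of -0.41 (SE 0.16, limma adjusted p = 0.327), that of Sdhc -0.40 (SE 0.17, adjusted p = 0.371) and that of Sdhd -0.17 (SE 0.13, adjusted p = 0.619). On the second Sdha probe set wildtype replicates 1 and 2 lay among the null arrays, although wildtype replicate 1 was the highest array on the brightest one. Of 30 further probe sets over the filter, which belonged to 23 genes, 24 had the direction of the brightest one. At an unadjusted limma p of 0.05, 3 of the 30 were lower and none higher, against 8.98% and 3.84% of all genes. This count is near the background. The 3 belonged to Sdha, Sdhc and Atp5a1, which were already lower on their brightest probe sets.

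**Figure D3:**
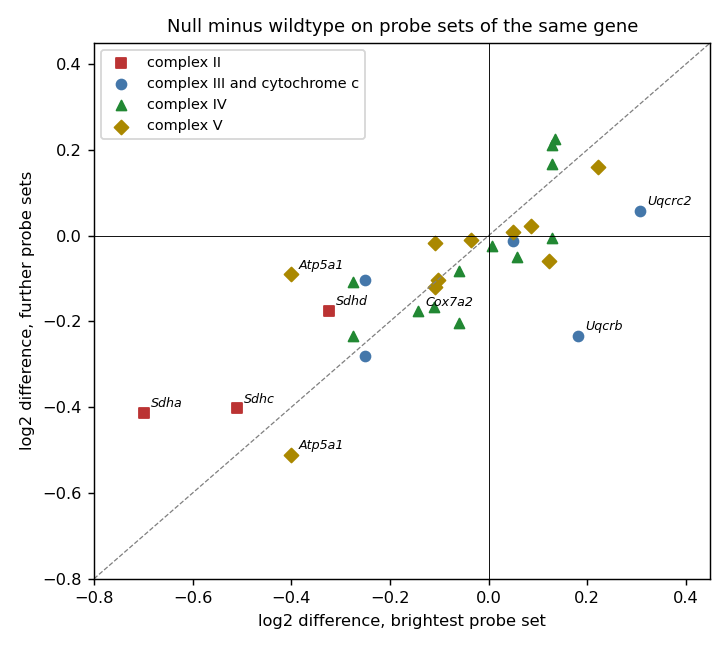
Log2 difference, null minus wildtype, on the brightest probe set of a gene (horizontal axis) and on each of its further probe sets over the filter (vertical axis); each of the 30 points is a further probe set, colour and shape give the complex, and the dashed line marks equal values. Sdha, Sdhc, Sdhd and Atp5a1 lie in the lower left, while Uqcrb has opposite signs on its probe sets.

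Among the 10 genes of complex III and cytochrome c, 6 had lower and 4 higher means, with a median log2 difference of -0.14. Uqcrc2, a core subunit on the matrix side, was the 1 gene of the list with higher signal at an unadjusted p of 0.05. It read 10.54, 10.54, 10.47, 10.14 and 10.37 in wildtype and 10.85, 10.74, 10.79, 10.76 and 10.46 in null tissue. Null replicate 8 alone fell inside the wildtype range. The log2 difference was 0.31 (SE 0.13, limma adjusted p = 0.343), and 0.24 without wildtype replicate 4. The unadjusted p exceeded 0.05 without that array, without wildtype replicate 5 and without null replicate 3, 4, 5 or 7. Its second probe set had 0.06 (SE 0.13, limma adjusted p = 0.898).

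Uqcrc1, the partner core subunit of Uqcrc2, was dim and varied widely. It read 4.69, 4.91, 3.78, 5.12 and 5.08 in wildtype and 4.44, 3.76, 4.38, 3.59 and 4.66 in null tissue. Wildtype replicate 3 was among the lowest arrays, and the log2 difference of -0.55 (SE 0.27, limma adjusted p = 0.443) was -0.78 without it, with an unadjusted p under 0.05. Cyc1, cytochrome c1, read 7.31, 7.17, 6.40, 6.93 and 7.16 in wildtype and 7.07, 6.61, 6.44, 6.93 and 5.95 in null tissue. The groups overlapped, with a log2 difference of -0.39 (SE 0.23, limma adjusted p = 0.517). This was -0.23 without null replicate 8, and -0.54 without wildtype replicate 3 or -0.51 without null replicate 3, both with an unadjusted p under 0.05.

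The remaining electron carriers and accessory subunits gave smaller differences. Uqcrfs1, the Rieske iron-sulphur protein, had a log2 difference of -0.22 and Cycs, the mobile electron carrier cytochrome c, had -0.25, with all 3 Cycs probe sets lower. Uqcr11, a small accessory subunit, had -0.27. Without wildtype replicate 4, Uqcr11 had -0.44 and Uqcrfs1 -0.29, both at an unadjusted p under 0.05, and Cycs reached that p at -0.34 without null replicate 8. Uqcrq had 0.22, or 0.06 without wildtype replicate 4, Uqcrh -0.07 and Uqcr10 0.05. Uqcrb had 0.18 on its brightest and -0.23 on its second probe set, so its direction depended on the probe set. The limma adjusted p of these 7 genes on their brightest probe sets was 0.520 to 0.917.

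Complex IV had 16 genes on the array, and 10 were over the filter. Their median log2 difference was 0.02, with 4 lower and 6 higher means and none at an unadjusted limma p under 0.05. The sign of this median depended on the arrays used, and it was -0.07 without wildtype replicate 4. Cox5a, a subunit on the matrix side, read 9.16, 9.47, 9.38, 9.75 and 9.64 in wildtype and 9.11, 9.20, 8.99, 9.39 and 9.34 in null tissue. The groups overlapped, with a log2 difference of -0.27 (SE 0.14, limma adjusted p = 0.458), -0.35 without wildtype replicate 1, where the unadjusted p was under 0.05, and -0.10 with the 3' to 5' actin difference in the fit.

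Cox7a2 and Cox8a had small differences. Cox7a2, the broadly expressed form of subunit VIIa, read 13.03, 13.07, 13.17, 13.17 and 13.21 in wildtype and 13.03, 12.91, 12.96, 13.08 and 12.96 in null tissue. Null tissue was lower by a log2 difference of -0.14 (SE 0.10, limma adjusted p = 0.611), and the second probe set gave -0.18 (SE 0.11). Cox8a, the broadly expressed form of subunit VIII, read 7.31, 7.26, 7.36, 7.28 and 7.38 in wildtype and 7.50, 7.44, 7.54, 7.16 and 7.61 in null tissue. Null replicate 7 was the lowest of all arrays and the other null arrays were the highest. A log2 difference of 0.13 was found (SE 0.12, limma adjusted p = 0.686), and 0.21 without null replicate 7.

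Several complex IV subunits exist as alternative forms made from different genes. The broadly expressed forms Cox4i1, Cox6a1, Cox6b1, Cox7a2 and Cox8a were all over the filter. The 6 genes under it were the alternative forms Cox4i2, Cox6a2, Cox6b2, Cox7a1, Cox8b and Cox8c. Of these, Cox6a2, Cox7a1 and Cox8b are known from heart and skeletal muscle, Cox4i2 from lung, and Cox6b2 and Cox8c from testis. Cox4i2, Cox6a2, Cox7a1, Cox8b and Cox8c had wildtype means of 2.27 to 2.41, at the bottom of the scale, and gave no fold. Cox6b2 lay just below the filter, with wildtype arrays at 3.68 ± 0.29 (SD, n = 5) and null arrays at 4.09 ± 0.45 (SD, n = 5), and with 3 null arrays above the wildtype range. Cox4i1, Cox6a1 and Cox6b1 had log2 differences of 0.03, 0.01 and 0.06. Of the others, Cox5b had 0.13, Cox6c -0.11, Cox7c 0.05 and Cox7a2l, a Cox7a2 relative that joins complexes III and IV into supercomplexes, -0.06.

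In complex V, Atp5a1 had a lower mean in null tissue at an unadjusted p of 0.05, and the other 16 genes did not reach that p. Atp5a1, the alpha subunit of the catalytic head, read 12.41, 12.49, 12.16, 12.20 and 12.47 in wildtype and 12.07, 12.06, 11.92, 11.83 and 11.84 in null tissue. Every null array was lower than every wildtype array, as for Sdha and no other gene of the 41 (2 genes, against 2.03% of all genes with that pattern in this direction). Null tissue had a log2 difference of -0.40 (SE 0.12), or 1.32-fold lower (limma adjusted p = 0.222). Of its further probe sets, the dimmer one had -0.51 (SE 0.16, limma adjusted p = 0.270) with no overlap between the groups. That probe set is of the _s_at type, which can match related transcripts or pseudogenes. The remaining one, not of that type, had -0.09 (SE 0.15, adjusted p = 0.859), so 1 of 3 probe sets did not show the difference.

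The beta subunit Atp5b, which carries the catalytic sites of the head beside Atp5a1, had a log2 difference of -0.03 (SE 0.13, limma adjusted p = 0.950). The other head and stalk subunits Atp5c1 (gamma), Atp5d (delta) and Atp5e (epsilon) had 0.09, 0.12 and 0.23. For Atp5e the wildtype arrays read 10.59, 10.84, 10.76, 10.10 and 10.89 and the null arrays 10.85, 10.99, 11.06, 10.89 and 10.54. Wildtype replicate 4 was the lowest array, and the difference of 0.23 (SE 0.17, limma adjusted p = 0.614) was 0.10 without it.

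The 3 genes for subunit c of the membrane rotor gave small differences. Atp5g1 read 8.88, 8.84, 8.60, 8.76 and 9.20 in wildtype and 8.68, 8.65, 8.72, 8.71 and 8.52 in null tissue. The log2 difference was -0.20 (SE 0.13, limma adjusted p = 0.558) and was -0.11 without wildtype replicate 5, the highest array. Atp5g2 had 0.06 and Atp5g3 -0.08. The peripheral stalk genes Atp5pb, Atp5h, Atp5j and Atp5o, which hold the head still against the rotor, had -0.10, -0.04, 0.0001 and 0.05. The accessory subunits of the membrane part, Atp5j2, Atp5k, Atp5l, Atp5md and Atp5mpl, had 0.22, -0.11, 0.11, 0.02 and 0.16. Atp5j2 had 0.04 without wildtype replicate 4, on which it was lowest. The limma adjusted p of complex V genes other than Atp5a1 was 0.558 or higher.

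The level of the genes on each array showed where the spread lay. For each gene the deviation from its mean over the 10 arrays was taken, and the median over genes was used as the level of an array. For complex II these levels were 0.17, 0.29, 0.10, 0.30 and 0.29 in wildtype and -0.06, -0.09, -0.15, -0.25 and -0.14 in null tissue. The groups did not overlap, but 3 of the 4 genes entering the median were those already found lower on these arrays. The complex II level therefore restates their differences and is no further support for them. For the other 37 genes the levels were -0.04, 0.06, 0.04, -0.17 and 0.19 in wildtype and -0.02, 0.03, 0.02, 0.04 and -0.10 in null tissue. The extremes here were both wildtype embryos: of all 41 genes, 11 had their lowest value of the 10 arrays on wildtype replicate 4 and 10 their highest on wildtype replicate 5. For these 37 genes the wildtype arrays had a mean level of 0.02 with an SD of 0.13. The null arrays had a mean level of -0.005 with an SD of 0.06. The means lay closer together than the SD of either group.

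**Figure D4:**
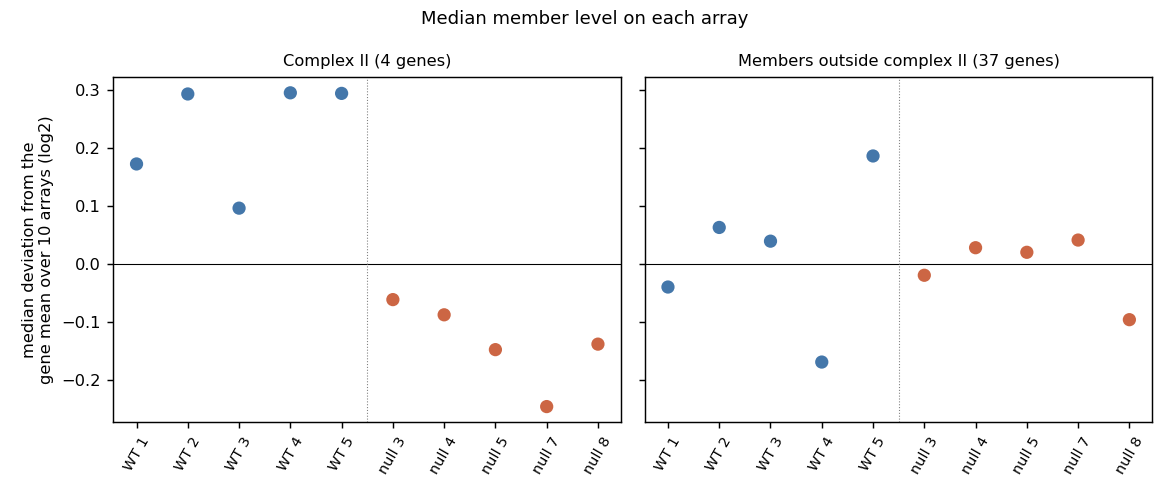
Median deviation from the gene mean over all 10 arrays (vertical axis, log2) on each array for the 4 complex II genes (left) and the other 37 genes over the filter (right); blue points are wildtype and orange points Fbln1-null embryos. Complex II levels are 0.10 to 0.30 in wildtype and -0.25 to -0.06 in null tissue, which restates the lower means of Sdha, Sdhc and Sdhd. For the other genes the widest values, -0.17 and 0.19, are both wildtype.

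Markers of tissue rich in mitochondria or carried along in dissection were compared as list means, which overlapped between the genotypes. Of 14 heart and striated muscle markers 4 were over the filter, and the mean log2 signal of all 14 was 3.60 to 3.90 in wildtype and 3.62 to 3.81 in null tissue. The 4 were Actc1, Myl4, Myog and Tnnc1, with wildtype means of 6.58, 6.03, 5.25 and 4.55, and Myl4 had the widest difference of these, -0.33. Of the 10 under the filter, the heart genes Myh6, Nppa and Myl2 had wildtype means of 2.33 to 2.71, at or near the bottom of the scale. Of 8 erythroid markers 3 were over the filter, and their mean over all 8 was 5.63 to 6.32 in wildtype and 5.96 to 6.29 in null tissue, with Gata1 and Alas2 at wildtype means of 2.69 and 2.78. The embryonic globins Hbb-y, Hbb-bh1 and Hba-x were bright, with wildtype means of 12.75, 12.42 and 10.57. Their log2 differences were -0.02, 0.24 and 0.57, none past the adjusted threshold. For both lists the ranges of the list means overlapped (exact permutation p = 0.540 for muscle and 0.675 for erythroid markers). Genes under the filter, 10 of the 14 and 5 of the 8, leave such a mean little room to move. The part of these cells in the results was not tested. The 3' to 5' actin difference was higher in null tissue by 0.22, while that of Gapdh went the other way, by -0.15 (1.96 in wildtype and 1.81 in null tissue, exact permutation p = 0.302). With the actin difference in the fit the log2 differences were -0.62 for Sdha, -0.62 for Sdhc, -0.21 for Sdhd, -0.47 for Atp5a1 and 0.17 for Uqcrc2. Sdha, Sdhc and Atp5a1 kept an unadjusted p under 0.05 in that fit, and Sdhd and Uqcrc2 did not.

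Assembly factors build the complexes from their subunits. Among the 26 that the array held, 20 were over the filter, with 2 lower (10%, against 8.98% of all genes) and 1 higher (5%, against 3.84%) at an unadjusted p of 0.05, shares near the background, and none past the adjusted threshold. Sdhaf1, which helps to insert iron-sulphur clusters into Sdhb, had a log2 difference of -0.41 (SE 0.14, limma adjusted p = 0.302), with 4 null arrays below the wildtype range. Uqcc1, an assembly factor of complex III, had -0.48 (SE 0.15, limma adjusted p = 0.270) at a dim wildtype mean of 4.22, and -0.21 with values under log2 4 raised to 4, where the unadjusted p was over 0.05. Pet100, an assembly factor of complex IV, had 0.50 (SE 0.19, limma adjusted p = 0.318), with 4 null arrays above the wildtype range, and its unadjusted p exceeded 0.05 without null replicate 7, without wildtype replicate 4 or with the actin difference in the fit. The median of the 20 was -0.02.

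Regulators of respiratory genes and of mitochondrial DNA had 11 of 17 genes over the filter, of which 1 was lower at an unadjusted p of 0.05 (9.09%, near the 8.98% of all genes). The 1 gene was Tfam, which packages and transcribes mitochondrial DNA. It read 6.81, 6.96, 6.90, 6.89 and 7.32 in wildtype and 6.42, 6.75, 6.74, 6.61 and 6.66 in null tissue. The groups did not overlap, a pattern that 2.03% of all genes had in this direction. Tfam had a log2 difference of -0.34 (SE 0.13, limma adjusted p = 0.332). It was -0.25 without wildtype replicate 5 or -0.28 without null replicate 3, where the unadjusted p was over 0.05. Nrf1 itself had 0.24 (SE 0.16, limma adjusted p = 0.596) and Ssbp1, the single-stranded DNA-binding protein of mitochondria, -0.18 (SE 0.12, adjusted p = 0.550). Ppargc1a, Ppargc1b and Esrra, which drive respiratory genes in adult muscle and fat, were under the filter.

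In the citric acid cycle and pyruvate dehydrogenase, where complex II has its other role, 16 genes were measured and 11 had lower means (68.8%, against 56.9% of all genes), with 1 lower at an unadjusted p of 0.05 (6.25%, against 8.98%). Dlst, the succinyltransferase of the oxoglutarate dehydrogenase complex, had a log2 difference of -0.59 (SE 0.21, limma adjusted p = 0.302), and -0.35 with the actin difference in the fit, where the unadjusted p was over 0.05. Sucla2, a subunit of succinyl-CoA synthetase, had -0.24 and Mdh2, mitochondrial malate dehydrogenase, -0.25. Fh1, fumarase, which takes the product of complex II, had 0.05. The carriers of ATP, ADP and phosphate and the outer membrane pores had 6 genes over the filter and none at an unadjusted p of 0.05. The 3 with the smallest p were Vdac3 at -0.13, the nucleotide carrier Slc25a4 at -0.12 and the phosphate carrier Slc25a3 at 0.13. Of 33 complex I subunits over the filter 2 were lower and none higher at that p (6.06%, against 8.98% lower and 3.84% higher), with a median of -0.01. Their 3 smallest p belonged to Ndufa9 at -0.82 (SE 0.14, limma adjusted p = 0.0633), Ndufb6 at -0.77 and Ndufa13 at 0.31. The adjusted p of Ndufa9 in limma was 0.0332 to 0.226 under the other settings and with 1 array left out, and it was under 0.05 with array weights, a filter at log2 6, an intensity trend or averaged probe sets. The 6 mitochondrially encoded subunits of complexes III to V had no probe set with their symbol and were not analysed here.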

How the data were processed

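Signals of Affymetrix 3' IVT arrays were deposited by the authors on a log2 scale after GCRMA, per the submitters' processing notes and the labels' protocols; its version is not given in the sources used here. GCRMA removes a background estimated from each probe's bases and summarizes a probe set in 1 normalized value, so dim genes are compressed towards the floor at 2.22. Of 22690 probe sets, 64 were controls and were not tested. Of the rest, 20380 had 1 platform symbol, 691 several and 1555 none, and only those with 1 were named. All 47 members were found in RefSeq (GRCm38.p6), under the same symbols. Of the 41 tested, 10, Sdha among them, were read on _s_at or _x_at probe sets, which can match related transcripts or pseudogenes.

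Probe sets over log2 4 on at least 5 of the 10 arrays (9801) were fitted with limma 3.58.1 in R 4.3.3 (lmFit, eBayes), genotype alone, two-sided, Benjamini-Hochberg over all 9801. Single values were compared with exact permutation tests, whose smallest p for 5 against 5 arrays is 0.00794. On simulated data with 9801 probe sets the fit recovered 20% of changes of log2 0.5 and 86% of log2 1. The number of arrays limits the precision. Members, lists and alternatives were chosen with earlier results of these data known. Members with the 3 smallest p in each complex, and those whose groups did not overlap, were given with every array; Sdhb was added, after its values were seen, to show all of complex II. Alternatives covered normalization, filter, floor, variance model, array weights, probe set choice, a block on replicate number, the actin control difference and arrays left out. The same replicate numbers occur in both groups for 3, 4 and 5, but the labels do not say that they pair embryos.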

Additional observations from a re-analysis of the deposited data

Results flagged for a closer look

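A sample far from the others of its group was found in 4 of 98 groups of 5 values examined, about what chance gives at 1 in 20. Null replicate 5 read 9.66 for Atp5j, against 9.96 to 10.04 on the other null arrays. Wildtype replicate 4 read 9.55 for Atp5j2, against 10.39 to 10.62. Null replicate 8 read 10.46 for Uqcrc2, against 10.74 to 10.85, and 10.13 for Uqcrh, against 10.35 to 10.39.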

How the results depend on the processing

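The main fit had 4 members lower and 1 higher at an unadjusted p of 0.05. No member passed the adjusted threshold in limma under any of the 11 other settings or with any of the 10 arrays left out. The 12 members chosen by rule for array values (Sdhb apart) kept their direction in every one of these fits that tested them. Sdha had an unadjusted p under 0.05 in every one, and Sdhc and Atp5a1 in all but the fits on the 6 arrays that share numbers. The members lower at an unadjusted p numbered 3 to 6 and those higher 0 to 1 with 1 array left out, where the loss of null replicate 3, 4, 5 or 7 or wildtype replicate 4 or 5 gave 0 higher. The number higher was 0 with the actin difference and when probe sets of a gene were averaged, and the median over members was -0.10 with the actin difference. Leaving out 1 array gave medians of -0.05 to 0.02 for all members, -0.45 to -0.34 for complex II, -0.15 to -0.09 for complex III, -0.07 to 0.07 for complex IV and -0.01 to 0.06 for complex V. Of all probe sets tested, 2 passed, 0 to 7 with 1 array left out, 0 without wildtype replicates 1 and 2 or with the actin difference, 1 without a filter, 8 with an intensity trend, 12 genes with probe sets averaged, and 34 with array weights or a filter at log2 6. The cause was not tested. Fbln1 had a log2 difference of -2.06 to -1.74 with 1 array left out.

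The replicate block could be fitted on the 6 arrays numbered 3, 4 and 5 in both groups. It gave 0 probe sets past the threshold, 3 members lower (Cox5a, Cycs and Sdha) and 3 higher (Atp5d, Atp5j2 and Uqcrc2) at an unadjusted p of 0.05, a log2 difference of -0.26 for Atp5a1, and medians of -0.33 for complex II and -0.032 for complex III. The same 6 arrays without the block, a fit added after the data were seen, gave 0, the same 3 lower and 2 higher (Atp5d and Uqcrc2), with the same medians. Deviations of same-numbered embryos correlated at -0.19, -0.34 and 0.16. So few values cannot decide whether these embryos share a litter or a day, which was not tested.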
